A study of Mus musculus with 4 samples.

Results

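The contactins, the neural cell adhesion molecules (NCAMs) and the L1 family are immunoglobulin-superfamily proteins on the surface of neurons. The genes described are Cntn1 to Cntn6, Ncam1, Ncam2, L1cam and Nrcam, chosen by gene symbol from a table of 32681 genes, and all 10 were present. They were measured by RNA sequencing in primary neuron cultures prepared from the neocortex of wild-type CD-1 mouse embryos at embryonic day 13. There were 2 groups of 2 libraries. Cultures of one received a control short hairpin RNA (shRNA), and those of the other received an shRNA that targets DcpS. This scavenger enzyme breaks down the cap that remains once a messenger RNA has been degraded from its 3′ end. No other allele or agent separates the groups in the labels, the DcpS cultures carry an shRNA titled number 2, and the share of cells transfected is not given. The labels do not say whether the libraries of a group stem from different litters or cultures. The p-values therefore reflect only how much these libraries vary, and that spread may be technical.

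Contactins are held in the membrane by a lipid anchor and have no cytoplasmic part, so they act through partners such as contactin-associated proteins and receptor phosphatases. NCAM carries long chains of polysialic acid in the developing brain, which lower its adhesion. L1cam, Nrcam and their relatives Chl1 and Nfasc cross the membrane and bind ankyrins, which tie them to the spectrin skeleton. In the developing cortex these molecules take part in axon growth, bundling and guidance and in neuronal migration.

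Dcps, the targeted gene, stood at 499.8 and 506.6 normalised reads in the controls against 114.5 and 119.6 in the DcpS libraries, 23.3% ± 0.716 of the control mean (SD, n = 2), the direction the labels give. Normalised read counts are reads divided by a size factor for each library. The 4 libraries held 17754768 to 21793685 reads, and libraries of 1 group differed by more than sampling noise. Markers of cortical projection neurons were abundant, with a summed normalised count of 76415 to 78216 in the 4 libraries, and the neuronal tubulin Tubb3 stood at 19013 to 19935. Of the 11 projection neuron markers 2 rose, Rbfox3 (log2 fold change 0.24) and Slc17a7 (0.52), and 0 fell. Of 8 radial glia markers Nes rose (0.27). Other cells were also represented. In the oligodendrocyte lineage Mbp rose (0.47) and Pdgfra fell (−0.63), of 7 tested. Of these 7, 6 had negative fold changes, and 4 were at an unadjusted p under 0.05 in limma. Of 3 endothelial markers tested Kdr fell (−0.74). Pecam1 (0.93, on 6 to 22 reads a library) and Cdh5 (−0.59, on 2 to 11 reads) did not pass and differed in direction. No listed marker was at 0 in all 4 libraries, but some were near it and were not tested. These were Sox10 (0 to 4 reads a library, 0 in both controls), Cldn5 (0 to 2), P2ry12 (0 to 3), Tek (0 to 5) and S100b (3 to 8). Interneuron and microglia markers gave 0 calls in limma, each with 1 at an unadjusted p under 0.05, and their sums were 264.4 to 299.5 and 147.5 to 164.4. All 6 fibroblast markers tested fell with DcpS shRNA, their sum being 10756 and 11856 in the controls and 6690 and 6398 in the DcpS libraries. Of 5 astrocyte markers tested 3 fell, Gfap, Aqp4 and Gja1. All 5 had negative fold changes and an unadjusted p under 0.05 in limma. That list's sum was 2107 and 2366 in the controls against 1627 and 1716 with DcpS shRNA. In cultures measured in bulk, fewer cells of a type and less RNA per cell cannot be told apart. The part these cells had in the values below was not tested.

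Cntn6, Cntn4, Cntn3, Cntn5 and Nrcam stood at 54.0% to 80.9% of their control means with DcpS shRNA, and the abundant members Cntn2, Ncam1 and L1cam at 92.5% to 110%. Cntn6, Cntn3 and Nrcam passed the test (limma, Benjamini-Hochberg adjusted p under 0.05 over 18110 genes) and fell. No member rose. The 3 lower calls among 10 members compare with 3.65% of all tested genes called lower, and the 0 higher calls with 2.14% called higher, 5.79% in either direction. At an unadjusted p under 0.05, 6 members passed in limma, as did 18.7% of all tested genes. On the recovered reads, edgeR called 3 members lower, against 3.78% of all genes, and DESeq2 called 2, against 1.72%. The median log2 fold change was −0.23 over the members and 0.0007 over all tested genes. In all 10 members the values of the groups did not overlap, 7 lower and 3 higher, but with 2 libraries a group this happened in 48.4% of all tested genes, 24% lower and 24.4% higher. An exact two-sided permutation test of 1 gene cannot give a p below 0.333 here, so the p-values below come from models that pool the spread across genes, limma unless another tool is named.

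**Figure D1:**
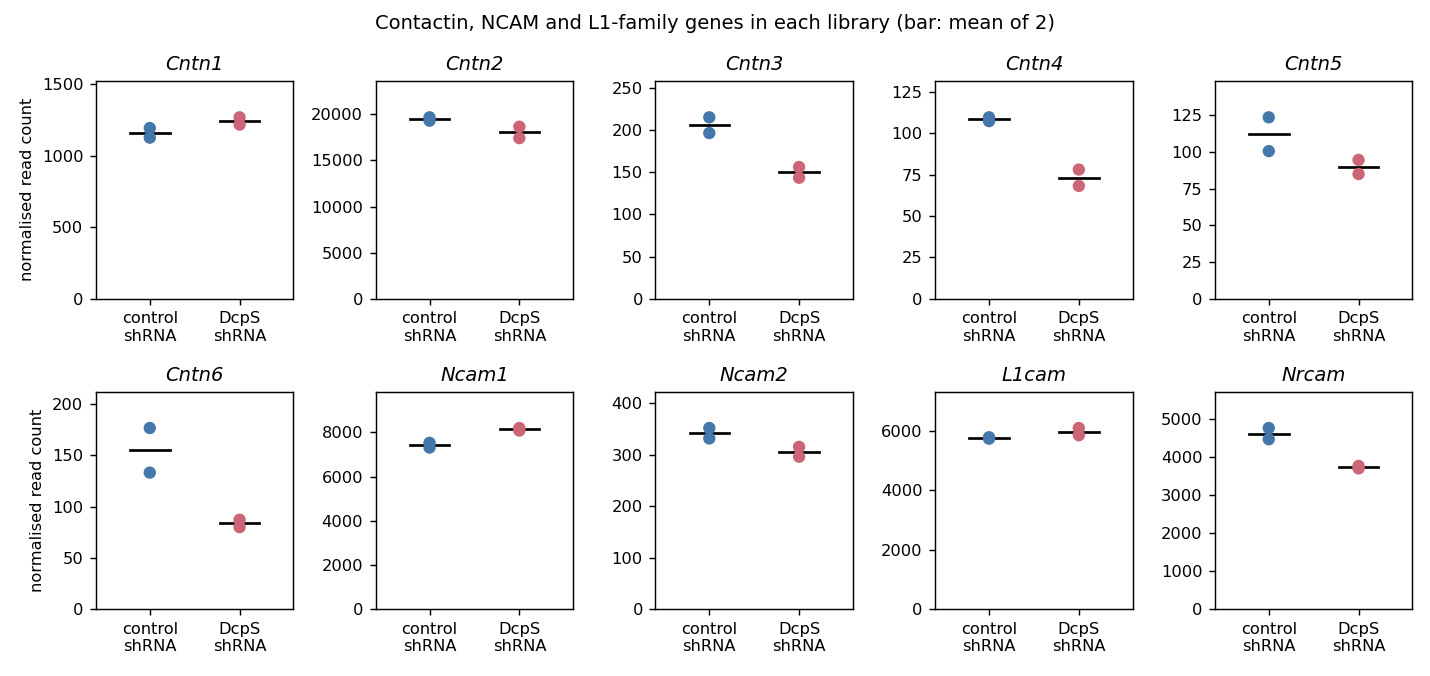
Normalised read count (vertical axes, each from 0) of the 10 members in the 2 control and 2 DcpS shRNA libraries. Points are libraries and horizontal bars are group means. Cntn3, Cntn4, Cntn6 and Nrcam sit visibly lower with DcpS shRNA, and the points of Ncam1, L1cam and Cntn1 lie slightly higher.

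Cntn6, also called NB-3, a ligand of Notch and a partner of Chl1, showed the largest fold change of the members. Its normalised read count was 133.0 in control 1 and 176.4 in control 2, and 80 and 87.2 in DcpS shRNA 1 and 2. Both DcpS libraries were below both controls, and the controls stood further apart from each other than the DcpS libraries did. Group means were 154.7 ± 30.7 and 83.6 ± 5.10 (SD, n = 2 each), the latter being 54.0% of the control mean. The log2 fold change was −0.87 (SE 0.16, limma, Benjamini-Hochberg adjusted p 0.00363), on the log2(value + 1) scale that is used throughout. These values rest on 78 to 172 reads a library. The call ended without control 2, the library in which Cntn6 was highest (log2 fold change −0.67, limma adjusted p 0.0624).

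Cntn3, also called PANG or BIG-1, is a neurite-promoting contactin of the brain. It stood at 196.7 and 215.4 in the controls against 143.6 and 156.4 with DcpS shRNA. Both controls were above both DcpS libraries, with like gaps inside each group. Group means were 206.0 ± 13.2 and 150.0 ± 9.12 (SD, n = 2 each), a log2 fold change of −0.46 (SE 0.12, limma, Benjamini-Hochberg adjusted p 0.0400). This call was the least firm of the 3. DESeq2 did not make it (adjusted p 0.274), and in limma it ended without control 1 (adjusted p 0.0673), control 2 (0.267) or DcpS shRNA 1 (0.109).

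Cntn4, also called BIG-2, is known for guiding sensory axons to their targets and as a partner of amyloid precursor protein. It stood at 107.4 and 109.7 normalised reads in the controls against 78.1 and 68.2 after knockdown. The controls lay close together and above both DcpS libraries. The mean was 108.6 ± 1.67 in the controls and 73.2 ± 7.05 with DcpS shRNA (SD, n = 2 per group), and the log2 fold change was −0.57 (95% interval −0.91 to −0.22), with an adjusted p of 0.0531 that just missed the threshold (limma, Benjamini-Hochberg). It passed without DcpS shRNA 1 (log2 fold change −0.66, adjusted p 0.0365) and with the replicate number as a block (adjusted p 0.0184). Reads numbered 61 to 113 a library.

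Cntn5, also called NB-2, which is known from the auditory pathway and from retinal circuits, stood at 123.5 and 100.5 in the controls against 94.5 and 84.9 with DcpS shRNA. Control 2 was only slightly above DcpS shRNA 1. Its log2 fold change of −0.31 did not pass (95% interval −0.66 to 0.03, limma, Benjamini-Hochberg adjusted p 0.327), so a fall as large as that of Cntn3 and no fall at all both lay within the interval. It was −0.16 without control 1 and −0.46 without control 2.

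The other contactins, Cntn1 and Cntn2, were the better expressed ones. Cntn1, also called F3, is the contactin of myelinated-fibre paranodes and of many growing axons. It had a normalised read count of 1126 and 1193 in the controls against 1217 and 1268 with DcpS shRNA, a log2 fold change of 0.10 (95% interval −0.03 to 0.23) that did not pass (limma, Benjamini-Hochberg adjusted p 0.409). Cntn2, also called TAG-1, marks growing axons of cortical projection neurons. It stood at 19687 and 19322 in the controls against 18668 and 17427 with DcpS shRNA. The DcpS libraries were lower and further apart than the controls. The log2 fold change was −0.11 (95% interval −0.22 to −0.00), short of the threshold (limma, Benjamini-Hochberg adjusted p 0.254). Without DcpS shRNA 1 it passed (log2 fold change −0.16, adjusted p 0.00378).

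Ncam1 encodes the main neural cell adhesion molecule and carrier of polysialic acid. It was 7521 and 7308 in the controls against 8073 and 8189 with DcpS shRNA. The DcpS libraries were the higher pair, and the log2 fold change of 0.13 (95% interval 0.03 to 0.24) did not pass (limma, Benjamini-Hochberg adjusted p 0.146), except without DcpS shRNA 1 (log2 fold change 0.14, adjusted p 0.0402). Ncam2, also called OCAM, is best known from olfactory axons. Its values were 331.6 and 351.8 in the controls against 315.3 and 296.1 with DcpS shRNA, and its log2 fold change of −0.16 (95% interval −0.36 to 0.04) did not pass (limma, Benjamini-Hochberg adjusted p 0.399). The ratio of Ncam2 to Ncam1 reads, which does not depend on how libraries were scaled, was 0.0441 and 0.0481 in the controls against 0.0391 and 0.0362 with DcpS shRNA. With 2 values a group this ratio cannot reach a permutation p below 0.333.

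Nrcam, an L1-family molecule of axons and of nodes of Ranvier, was the abundant member that fell. It had a normalised read count of 4474 and 4768 in the controls against 3772 and 3706 with DcpS shRNA. The DcpS libraries lay close together and below both controls. Group means were 4621 ± 207.4 and 3739 ± 47.2 (SD, n = 2 each), the latter being 80.9% of the control mean, with a log2 fold change of −0.30 (SE 0.05, limma, Benjamini-Hochberg adjusted p 0.00204). The call was also made by edgeR and DESeq2 and ended without control 2 (log2 fold change −0.26, limma adjusted p 0.0698).

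L1cam, the founding member of the family, differed little. Its values were 5790 and 5742 in the controls against 6101 and 5859 with DcpS shRNA, a log2 fold change of 0.05 (95% interval −0.05 to 0.16) that did not pass (limma, Benjamini-Hochberg adjusted p 0.648). Within each library the ratio of Nrcam to L1cam reads was 0.773 and 0.830 in the controls against 0.618 and 0.632 with DcpS shRNA. The intervals of the fold changes of Nrcam and L1cam did not overlap, and the difference between the genes had no test of its own. The remaining genes of the L1 family are not among the 10. Chl1, the close homologue of L1, was 7875 and 8155 in the controls against 5737 and 5627 with DcpS shRNA. It fell by 0.50 on the log2 scale (SE 0.05, limma, Benjamini-Hochberg adjusted p 1.30e-05), a call that held under all 13 alternative settings. Nfasc, neurofascin of the axon initial segment, had a log2 fold change of −0.05 (95% interval −0.16 to 0.06).

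**Figure D2:**
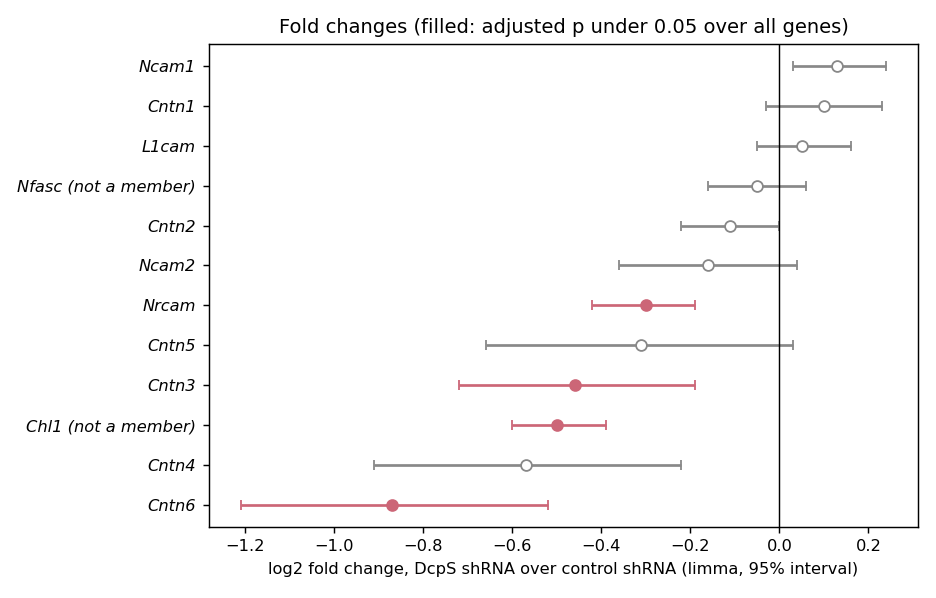
Log2 fold change of DcpS shRNA over control shRNA (horizontal axis) with 95% limma intervals for the 10 members and, for comparison, Chl1 and Nfasc. Filled red points passed an adjusted p of 0.05 over all genes. Cntn6 lies lowest at −0.87, and the intervals of L1cam, Cntn1, Ncam2, Cntn5 and Nfasc include 0.

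The levels of the members can be ordered only per length. Per kilobase of annotated exon, the control mean was 2100 ± 27.7 normalised reads for Cntn2, 856 ± 17.4 for Ncam1 and 785 ± 4.66 for L1cam (SD, n = 2). Nrcam followed at 346 ± 15.5 and Cntn1 at 123 ± 5. The lower group held Cntn3 at 30.6 ± 1.96, Ncam2 at 30.2 ± 1.26, Cntn5 at 24.7 ± 3.59, Cntn6 at 23.8 ± 4.72 and Cntn4 at 12.8 ± 0.197 normalised reads per kilobase. Cntn3 could not be ordered against Ncam2 within this spread, nor Cntn5 against Cntn6. With DcpS shRNA the first 5 kept their order. In the lower group Ncam2, at 27.0 ± 1.19, then lay above Cntn3 at 22.3 ± 1.35, and Cntn6, at 12.9 ± 0.785, lay below Cntn5 at 19.8 ± 1.49. Cntn2 made up 48.7% and 48.2% of the summed per-kilobase level of the 10 genes in the controls against 47.0% and 45.5% with DcpS shRNA, while Ncam1 had 20% and 19.6% against 21.8% and 23.0%. Exon length here is the union over all annotated transcripts, so a gene with many long variants reads low on this scale.

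The members differ widely in where they lie and how long they are. On GRCm38 with the GENCODE M21 annotation, Cntn3 (chr6:102162655-102573101, minus strand), Cntn6 (chr6:104492790-104863406, plus strand) and Cntn4 (chr6:105677660-106699310, plus strand) lie in 1 run on chromosome 6, with Chl1 (chr6:103510586-103750211, plus strand) between Cntn3 and Cntn6. These 4 were the only protein-coding genes of the table in that stretch of 4.54 Mb. All 4 had negative fold changes, 3 passed the test, and Cntn4 missed it. Of the 3 tested protein-coding genes on either side, Gxylt2 (log2 fold change 0.02), Ppp4r2 (0.09), Trnt1 (0.03), Crbn (−0.07) and Lrrn1 (0.03) did not pass. Pdzrn3, a ubiquitin ligase gene 1.01 Mb before Cntn3, fell by 0.20 on the log2 scale (limma, Benjamini-Hochberg adjusted p 0.0494). The run was noticed after the values were seen.

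**Figure D3:**
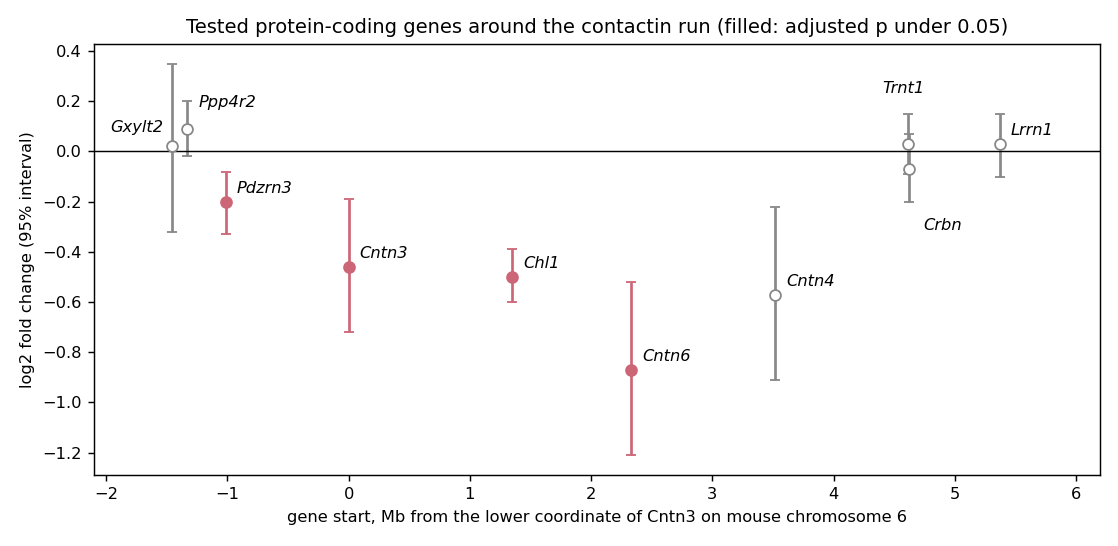
Log2 fold change with 95% limma interval (vertical axis) of the 4 genes of the run and the 3 tested protein-coding genes on either side, placed by gene start in Mb from Cntn3 (horizontal axis). Filled red points passed an adjusted p of 0.05. Cntn3, Chl1, Cntn6 and Cntn4 lie between −0.46 and −0.87, and the other genes between −0.20 and 0.09.

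Elsewhere, Cntn5 (chr9:9660891-10904775, minus strand) and Ncam1 (chr9:49502136-49798925, minus strand) lie far apart on chromosome 9. Cntn2 (chr1:132509427-132543256, minus strand) lies next to Nfasc (chr1:132564690-132741797, minus strand). Nrcam (chr12:44328885-44601964, plus strand), Cntn1 (chr15:92051165-92341967, plus strand), Ncam2 (chr16:81200697-81626828, plus strand) and L1cam (chrX:73853778-73896105, minus strand) are each on a chromosome of their own. Cntn4 and Cntn5 span 1022 and 1244 kb, and Cntn2 and L1cam 33.8 and 42.3 kb. Among 507 tested protein-coding genes of at least 300 kb, 13.4% were called lower and 3.35% higher. Of 1671 genes from 100 to 300 kb, 8.2% were called lower and 2.87% higher, and of 11605 genes under 100 kb, 3.79% and 2.60%. Of the 10 members 5 belong to the first class, Cntn3, Cntn4, Cntn5, Cntn6 and Ncam2, of which Cntn3 and Cntn6 were called lower, 3 to the middle class, Cntn1, Ncam1 and Nrcam, of which Nrcam was, and 2 to the shortest, Cntn2 and L1cam, of which 0 were. The part of gene length in the fold changes was not tested. L1cam shares 100 exon bases with Arhgap4 on the same strand, which stood at 100.5 to 119.0 normalised reads. Cntn5 and Ncam1 overlap antisense RNAs, Gm32710 and Gm11149, with at most 8.18.

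Promoter sequences of the 3 members that fell are shown to compare how unlike they are. Each is the RefSeq window on GRCm38.p6 from 250 bases before to 50 after an annotated start, given in the direction of the gene, and capitals mark the dinucleotide CG.
Cntn3, chr6:102464618-102464917, minus strand: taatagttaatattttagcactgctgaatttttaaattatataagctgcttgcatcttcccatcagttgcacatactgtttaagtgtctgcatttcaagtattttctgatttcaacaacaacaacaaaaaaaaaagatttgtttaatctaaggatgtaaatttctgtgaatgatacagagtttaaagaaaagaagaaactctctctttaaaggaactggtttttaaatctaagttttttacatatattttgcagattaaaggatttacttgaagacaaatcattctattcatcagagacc
Cntn6, chr6:104492794-104493093, plus strand: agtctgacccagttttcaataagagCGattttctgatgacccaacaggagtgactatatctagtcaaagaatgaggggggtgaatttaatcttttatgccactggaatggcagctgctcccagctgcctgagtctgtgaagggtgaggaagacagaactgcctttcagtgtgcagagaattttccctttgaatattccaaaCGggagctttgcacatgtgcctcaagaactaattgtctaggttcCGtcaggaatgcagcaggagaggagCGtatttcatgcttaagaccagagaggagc
Nrcam, chr12:44328635-44328934, plus strand: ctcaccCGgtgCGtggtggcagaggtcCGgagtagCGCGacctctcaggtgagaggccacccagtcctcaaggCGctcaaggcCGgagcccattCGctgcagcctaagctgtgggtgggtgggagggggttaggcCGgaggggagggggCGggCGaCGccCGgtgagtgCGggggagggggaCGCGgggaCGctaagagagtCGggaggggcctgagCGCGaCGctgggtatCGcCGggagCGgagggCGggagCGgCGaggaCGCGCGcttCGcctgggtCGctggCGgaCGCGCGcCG
The window of Cntn3 held 0 CG and that of Cntn6 4, where the median of 32851 promoter windows was 7. Nrcam, with 37, had more than 94.4% of them. The window of Cntn3 lies inside the longer GENCODE gene, so it belongs to 1 of its starts. None of the 3 windows held TATAAA or CCAAT on either strand, which 13.6% and 37.4% of all windows did. Windows were found for 9 of the 10 members, all but Ncam1. Among the members that were not called, Cntn2 had 13 CG, Ncam2 41, Cntn5 26 in each window, and the windows of L1cam 25 and 22. Cntn4 had windows with 4 and 12 CG and Cntn1 windows with 9, 5 and 4. Both CG-poor and CG-rich windows thus occurred among the members that fell and among those not called. The windows of Cntn6, Cntn2, Cntn4 and L1cam, and some of Cntn1, also lie inside the longer GENCODE genes. Which starts these cultures used was not tested.

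The Dcps transcript holds the 8 bases CACGTGCA, made of the overlapping words CACGTGC and ACGTGCA, which earlier work on these data had found often in the 3′ untranslated regions (3′ UTRs) of genes that fell. The sequence of the shRNA was not used here. The words were searched on the sense strand of GENCODE coding transcripts, and the sites in Dcps, in Nrcam and Cntn3, in the 3′ UTR of Chl1 and in Cntn1 are shown with 10 flanking bases on each side and the word in capitals.
Dcps, chr9:35124746-35124773, minus strand: ctatcacctgCACGTGCAtttcacagct
Nrcam 3′ UTR, chr12:44600127-44600153, plus strand: cataggtattACGTGCAaataaacatg
Chl1 3′ UTR, chr6:103731815-103731841, plus strand: gcagactctgACGTGCAatgctgacta
Cntn3 coding sequence, chr6:102169012-102169038, minus strand: gaataatgtgCACGTGCtgaacacaaa
Cntn1 coding sequence, chr15:92271283-92271310, plus strand: caggccggtaCACGTGCAcggcgcagac
Of the 3 members that fell, Nrcam has a word in its 3′ UTR, in 1 annotated transcript, Cntn3 has one in its coding sequence, and none was found in Cntn6. Of the 7 members that were not called, 0 have a word in the 3′ UTR. Chl1 also has one in its coding sequence. Cntn1 holds the whole 8 bases in its coding sequence and L1cam both words, and neither fell. Of 13709 scanned genes 8% have a word in the 3′ UTR, and of those called lower 33.1% do. The words were picked from these same data for being frequent there, so the 33.1% repeats that choice and is no independent result. For the coding sequence the share was 12.6% of 13803 genes. Among the partner genes described below, 2 of 12 that fell have one in the 3′ UTR, Chl1 and Cadm2, as do 0 of 3 that rose and 4 of 45 that were not called, Nfasc, Cntnap1, Cntnap5b and Lsamp. The part of these words in the fold changes was not tested.

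The genes that work with the members were read from lists by role, 61 genes of which 60 were tested. Of these, 12 fell, 3 rose and 45 did not pass, with a median log2 fold change of −0.01. Over all 18110 tested genes 3.65% were called lower and 2.14% higher. The lists were chosen with earlier results of these data known, so their counts are descriptions. Of the called genes 8 kept their call under every alternative setting: Chl1, St8sia4, Aplp2, Nrp1, Itgb1, Kirrel3, Fgfr2 and Mcam. The other 7 lost it in at least 1, among them 6 without control 2, 5 without control 1 and 5 with DESeq2.

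St8sia4, which with St8sia2 builds polysialic acid on NCAM, fell. It stood at 500.7 and 523.0 normalised reads in the controls against 348.0 and 325.2 with DcpS shRNA, both below the controls. The log2 fold change was −0.60 (SE 0.09, limma, Benjamini-Hochberg adjusted p 0.000413). St8sia2, per kilobase the better expressed of the pair, stood at 3850 and 3651 against 3511 and 3361, with a log2 fold change of −0.13 that did not pass. Of 6 tested contactin-associated genes 0 passed in limma, and 1, Cntnap1 (log2 fold change 0.52), was at an unadjusted p under 0.05. Cntnap2 (0.07), the best expressed, did not pass. The receptor phosphatases Ptprz1 (−0.14), Ptprg (−0.01) and Ptpra (0.04) did not pass either, 0 of 3 in limma and 1 at an unadjusted p under 0.05.

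Among matrix ligands, tenascin-R, Tnr (log2 fold change −0.24), and versican, Vcan (−0.22), fell, and brevican, Bcan (0.23), rose. The heparan sulfate proteoglycan agrin, Agrn (0.02), the best expressed of these 6 genes, did not pass. Of the amyloid precursor family, whose proteins bind contactins, Aplp2 fell, from 3847 and 3853 normalised reads in the controls to 2920 and 2985 with DcpS shRNA (log2 fold change −0.38, SE 0.05, limma, Benjamini-Hochberg adjusted p 0.000210). App (0.02) and Aplp1 (0.09), the best expressed of the 3, did not pass.

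Of the co-receptors and intracellular partners, integrin beta 1, Itgb1, fell from 3779 and 3931 to 2626 and 2659 normalised reads (log2 fold change −0.54, SE 0.05, limma, Benjamini-Hochberg adjusted p 6.82e-06). Fibroblasts also express Itgb1, and the fibroblast markers fell in the same libraries. The part of other cells in the change of Itgb1 or of any other partner gene was not tested. The semaphorin co-receptor Nrp1 fell (−0.29), and the receptor tyrosine kinase Fgfr2 rose (0.37). The microtubule-binding protein Dcx (−0.15), the best expressed of the 7, did not pass. Ankyrins and spectrins, the membrane skeleton under the L1 family, gave 0 calls of 5 in limma, 0 also at an unadjusted p under 0.05, with log2 fold changes from −0.11 for Ank3 to 0.06 for Sptbn4 and 0.01 for the best expressed, Sptan1. Of the 3 proteases that shed L1 and NCAM, Adam10 fell (−0.19, limma, Benjamini-Hochberg adjusted p 0.0451).

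Of 23 other immunoglobulin-superfamily adhesion genes, Kirrel3 (log2 fold change −0.35), Mdga2 (−0.29), Cadm2 (−0.25) and Alcam (−0.22) fell. Mcam, the melanoma cell adhesion molecule, rose from 168.2 and 146.7 to 299.8 and 281.6 normalised reads (0.88, SE 0.12, limma, Benjamini-Hochberg adjusted p 0.000195). The best expressed gene, Bsg (0.07), and 17 others did not pass, among them the IgLON genes Negr1 (0.13), Lsamp (0.08), Ntm (−0.09) and Opcml (−0.15).

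**Figure D4:**
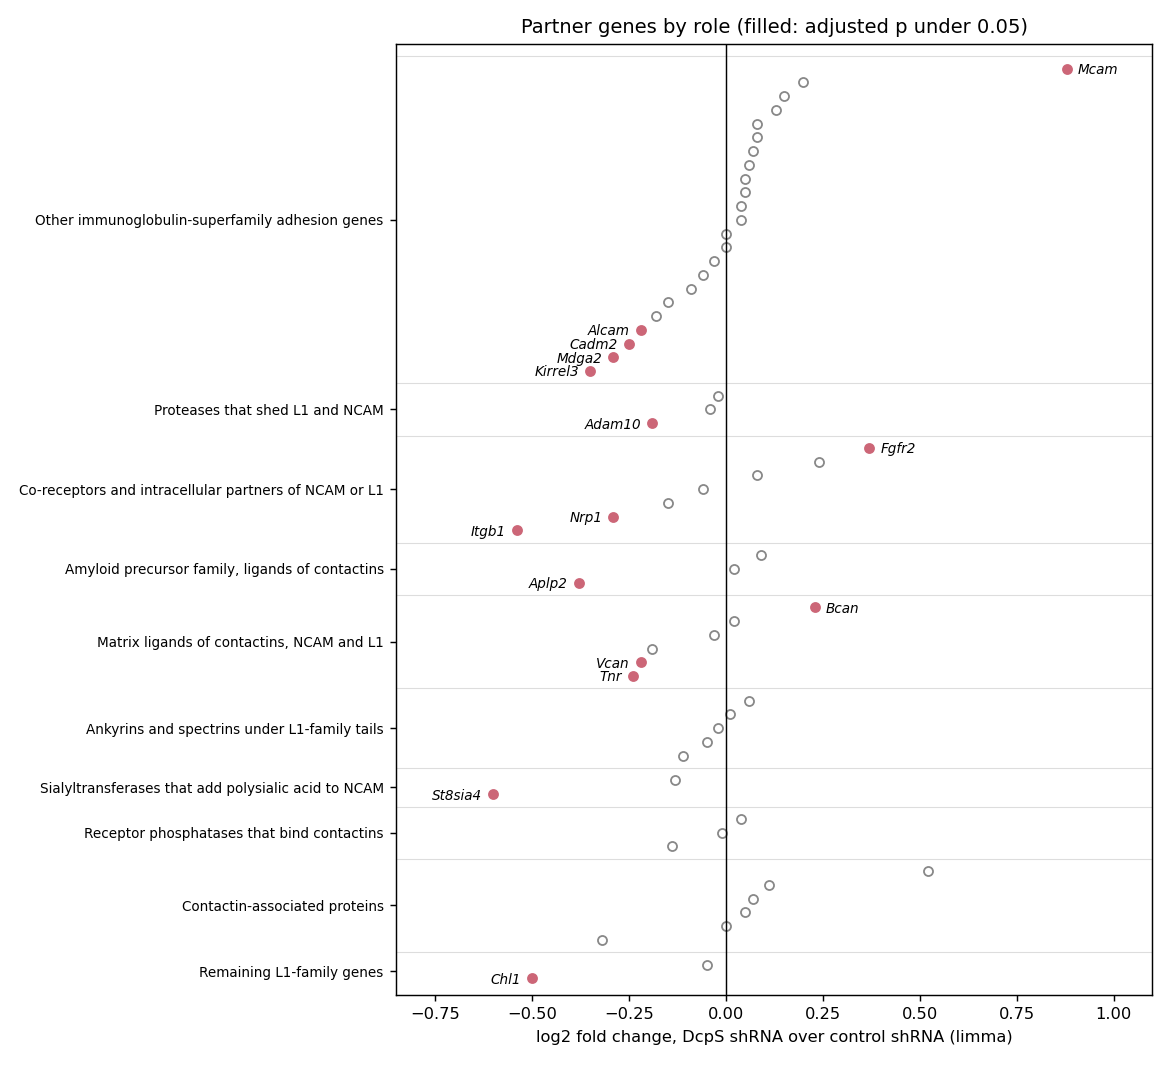
Log2 fold change (horizontal axis) of the 60 tested partner genes, grouped by role on the vertical axis. Each point is 1 gene, filled red where it passed an adjusted p of 0.05. Called genes lie on both sides of 0, 12 lower and 3 higher, where 3.65% and 2.14% of all tested genes were called.

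The number of members called was 3 in the reported setting and between 2 and 4 with the other pseudocounts, filters, scalings, tools and the replicate block. It was 0 of 10 without control 2 (limma, 5 members at an unadjusted p under 0.05, against 13.2% of all tested genes there) and 5 without DcpS shRNA 1, where Cntn2, Cntn4 and Ncam1 passed and Cntn3 did not. Over all 18110 tested genes, calls rose as well with the replicate block (1626 against 1048 as reported) and without DcpS shRNA 1. With DcpS shRNA 1 left out, the lone DcpS library is assumed to vary like the controls. The direction of each member's fold change was the same in every setting run.

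**Figure D5:**
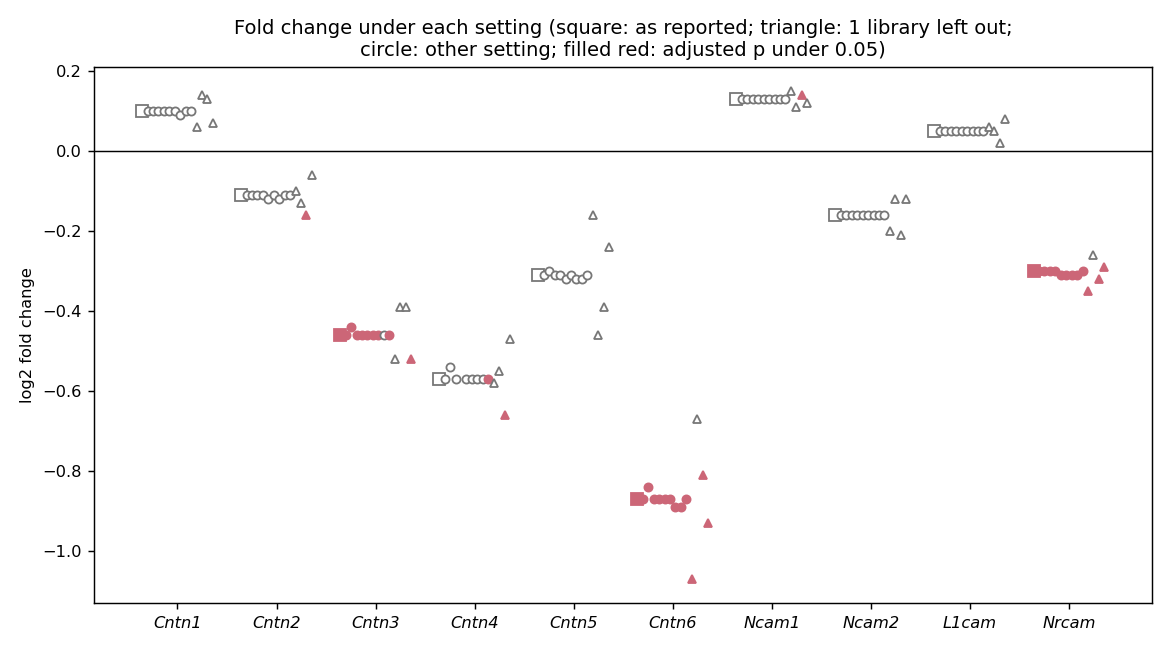
Log2 fold change (vertical axis) of each member under the reported setting (square), with 1 library left out (triangles) and under the other alternatives (circles). Red fill marks an adjusted p under 0.05. No member changed sign, and the triangles of Cntn6 spread from −1.07 to −0.67.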

How the data were processed

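RNA sequencing gave 4 libraries, 2 per group. HISAT2 2.2.0, SAMtools 1.3.1, Picard, featureCounts, DESeq2 and GRCm38 are named, per the submitters' processing notes. How the counting treated strand and multi-mapped reads, and with which annotation, is not given in the sources. The deposited values are a signal: gene counts scaled by the authors with 1 factor per library. Every value was a whole multiple of its column's smallest positive value (100% within 0.001), so whole reads were recovered, and the factors equalled median-of-ratios size factors. Such scaling takes the typical gene as unchanged.

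Genes were kept by edgeR's filterByExpr (minimum count 10), leaving 18110. The main test was limma 3.58.1 on log2(normalised read count + 1) with trend and robust empirical Bayes, two-sided, group as the only term, Benjamini-Hochberg adjusted over all genes. The script was tested on simulated data. Alternatives on recovered reads were edgeR 4.0.16 (quasi-likelihood) and DESeq2 1.42.0. A count of 0 allows 3 reads, 0.138 to 0.169 CPM, for counting error only.

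The members, gene lists and test settings were chosen with earlier results of these data known, so list counts are descriptions. All members are named, and so are all called partner genes and the best expressed (per kilobase) of each role.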

Additional observations from a re-analysis of the deposited data

How the results depend on the processing

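Directions were the same for all members, called partner genes and Dcps in every setting run, and Cntn4 had no value at a minimum mean of 5 CPM, which it did not reach. Of 18110 genes 1048 were called, 453 with DESeq2 and 1626 with the replicate block. With 1 library left out, where the lone sample is assumed to vary like the other group, the count ran from 594 (without control 2) to 1439, members called from 0 to 5 and partner genes from 9 to 19 (15 as reported). The left-out values ran from 0.06 to 0.14 for Cntn1, −0.16 to −0.06 for Cntn2, −0.52 to −0.39 for Cntn3, −0.66 to −0.47 for Cntn4, −0.46 to −0.16 for Cntn5, −1.07 to −0.67 for Cntn6, 0.11 to 0.15 for Ncam1, −0.21 to −0.12 for Ncam2, 0.02 to 0.08 for L1cam and −0.35 to −0.26 for Nrcam. Cntn3 was −0.46 with DESeq2 and not called there. Replicate numbers are shared by the groups, but same-numbered libraries barely deviated together (r = 0.0429 across 18110 genes), and the labels do not say whether a number marks a shared preparation, so pairing was not assumed. With the replicate block Cntn4 was −0.57 and called, which made 4 members called. The cause of these changes was not tested. Read depth limits Cntn4, Cntn5 and Cntn6 most.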
